A study of Mus musculus with 24 samples.

Results

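The livers of B6.S-2 congenic mice were compared with those of B6 mice, over every gene and exon of a custom expression array. The members are the 6 samples titled as liver, 3 congenic and 3 B6, out of 24 samples in all. The B6.S-2 strain (B6.S-D2Mit194-D2Mit311) carries DNA of SPRET/Ei, a strain derived from the wild species Mus spretus, on distal chromosome 2, and the rest of its genome is that of C57BL/6J (B6). The B6 livers are from the background strain without the donor segment. Age and sex are not tied to any sample by the labels, nor is diet: a chow diet is described for the mice and a high fat diet for some congenic males. The treatment field calls all samples congenic, so genotype rests on the titles. The design text calls the 3 samples of a group biological replicates. Congenic livers come from 1 strain, so all 3 carry the same donor segment and whatever else was fixed with it.

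In a congenic strain, genes inside the donor segment are read from the donor's own copies, with the donor's promoters, splice sites and coding changes, while genes elsewhere are read from background copies. The liver makes most plasma proteins, handles lipid and glucose traffic and clears homocysteine and ammonia. Its hepatocytes owe much of their gene programme to a few transcription factors, among them HNF4α and FOXA2, whose genes lie on mouse chromosome 2.

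The array measured 341 genes, of which 333 lie on chromosome 2 and 8 elsewhere, through 3099 exon features. An exon feature is a stretch of exon with its own probes, usually 3. Values are normalized log2 intensities, and a difference is congenic minus B6 on that scale with its standard error, from limma fitted to the 6 liver arrays unless stated otherwise. A gene or exon passed the test when its p-value, adjusted by the Benjamini-Hochberg method over all genes or all exon features, was under 0.05. Levels of different genes or exons cannot be set against each other on this scale, since each rests on its own probes. Probes were hybridised to RNA of both genotypes, so a difference in binding caused by donor sequence under a probe and a difference in RNA amount cannot be told apart. In whole liver, fewer cells of a type and less RNA per cell cannot be told apart either. The number of arrays, 3 a group, limits the precision, and the median standard error of a gene's difference was 0.0959.

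The congenic liver arrays were brighter than the B6 liver arrays before normalization. The median raw intensity was 456, 741 and 667 on congenic arrays 1 to 3, against 454, 232 and 294 on B6 arrays 1 to 3. Congenic 1 and B6 1 were thus equally bright, and the difference between these 2 arrays is given below as the matched pair, a value with no test. All 6 arrays were on the same slide, where the 4 wells of row A held congenic samples. After normalization the 2 genotypes were about as alike as replicates: correlations over exon features were 0.964 to 0.971 within congenic liver, 0.959 to 0.968 within B6 liver and 0.956 to 0.974 between the genotypes.

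The samples carried the marks of liver. Ahcy, the enzyme that breaks down S-adenosylhomocysteine, read 11.88 to 12.87 in the 6 livers and 9.45 to 9.77 in the 6 brains on the same slide. Lbp, a plasma protein that hepatocytes secrete to bind bacterial lipopolysaccharide, read 10.49 to 11.34 in liver and 9.41 to 9.66 in brain. Foxa2 overlapped between the tissues, at 9.59 to 10.26 in liver and 9.51 to 9.87 in brain. The log2 levels of the 4 hepatocyte markers (Hnf4a, Foxa2, Ahcy, Lbp) summed to 42.3 to 43.7 in congenic livers and 42.3 to 43.3 in B6 livers. The 5 neuron markers measured summed to 46.7 to 47.3 in congenic livers and 46.7 to 47.1 in B6 livers, against 49.5 to 51.7 in brain. The 4 markers of Kupffer and other immune cells summed to 40.2 to 40.6 in congenic livers and 40.4 to 40.8 in B6 livers. The 4 endothelial markers summed to 37.9 to 38.2 in congenic livers and 37.9 to 39.7 in B6 livers, the upper end being B6 2, where Id1 read 10.56. No marker is at 0 on this scale, because unbound background also gives intensity.

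With the 6 liver arrays alone, 0 of the 341 genes passed (0%), while 21 had an unadjusted p under 0.05 (6.16%), 15 of them higher (4.4%) and 6 lower (1.76%) in congenic liver. Groups of 3 did not overlap for 51 genes (15%), 28 higher (8.21%) and 23 lower (6.74%). By sign alone, 178 genes were higher (52.2%) and 163 lower (47.8%). In a fit of all 24 arrays, which estimates the spread from 4 tissues and both slides, 3 genes passed (0.88%), all higher in congenic liver: Hnf4a, 9430021M05Rik and Spag4. In a fit of the 12 arrays of the slide that held liver and brain, 0 genes passed. Differences were small throughout: the quartiles over all genes were -0.08 and 0.09, and the extremes were -1.00 and 0.47.

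Hnf4a encodes a nuclear receptor that switches on liver genes of lipid, bile acid and drug metabolism and of blood clotting. Its gene value was 9.73, 9.66 and 9.84 in congenic livers, against 9.20, 9.28 and 9.40 in B6 livers. All 3 congenic livers were above all 3 B6 livers. The difference was 0.45 ± 0.09 (95% interval 0.25 to 0.65), a 1.36-fold higher intensity in congenic liver. Its adjusted p was 0.117 in the 6-array fit and 8.44e-04 in the 24-array fit. It rose in the 24-array fit, and its adjusted p in the fit of the liver and brain slide was 0.0595. In the 24-array fit it passed whichever single liver array was left out, with differences of 0.40 to 0.50 and an adjusted p of at most 0.00924. The matched pair gave 0.53. The difference was 0.75 in the authors' value table. Over 6 arrays it passed neither there nor with brightness as a covariate. Only well row B held both genotypes in liver, as congenic 2, B6 2 and B6 3. With well row as a block the difference was 0.32, which thus rests on these arrays alone.

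**Figure D1:**
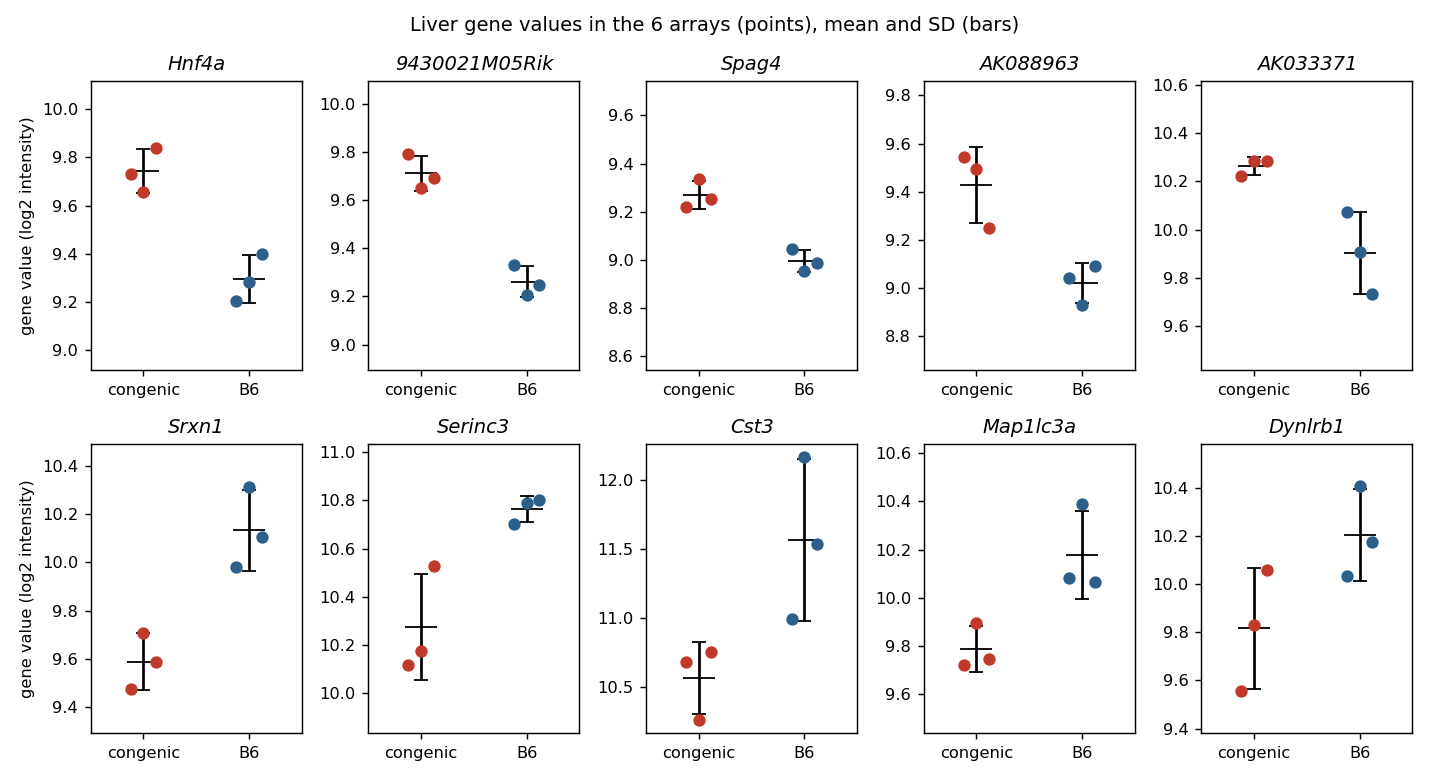
Gene values (log2 intensity) in each liver array for 10 genes, congenic left and B6 right in every panel. Points are arrays, the horizontal bar is the mean and the whiskers are 1 SD (n = 3). Hnf4a, at 9.66 to 9.84 in congenic livers and 9.20 to 9.40 in B6 livers, and Cst3, at 10.26 to 10.75 in congenic livers and 10.99 to 12.16 in B6 livers, show no overlap, while Dynlrb1 overlaps.

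Hnf4a has a pair of start sites about 40 kb apart, and adult liver is known to use mainly the downstream one, whereas the upstream one is known from pancreas and fetal liver. The array has features at a similar spacing, taken here as the first exon of each start, so its exons bear on which start the difference belongs to. The RefSeq windows of 250 bases before each start are shown here because the first exon of each start has its own values, given after them. They are on the plus strand of GRCm38.p6, upstream window chr2:163506607-163506856 and downstream window chr2:163546905-163547154. Capitals mark CCAAT, the box bound by NF-Y at many promoters, found on either strand.
Hnf4a upstream start: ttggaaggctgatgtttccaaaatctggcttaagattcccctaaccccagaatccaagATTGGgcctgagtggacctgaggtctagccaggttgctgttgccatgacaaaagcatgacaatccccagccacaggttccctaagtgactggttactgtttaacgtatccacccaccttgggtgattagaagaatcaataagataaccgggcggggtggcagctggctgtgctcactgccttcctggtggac
Hnf4a downstream start: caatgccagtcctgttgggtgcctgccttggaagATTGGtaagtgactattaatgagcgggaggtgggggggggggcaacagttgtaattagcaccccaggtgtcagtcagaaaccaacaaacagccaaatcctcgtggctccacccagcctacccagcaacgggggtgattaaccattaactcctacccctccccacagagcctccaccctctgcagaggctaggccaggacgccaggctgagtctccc
CCAAT stands once in each window, on the minus strand, and in 33.8% of 32851 mouse windows of this length. CAAAGTCCA, a form of the site of HNF4α itself, and TATAAA were searched on both strands too and are in neither window, against 0.384% and 12.4% of all windows. These are B6 reference sequences, and the SPRET/Ei sequence was not used here.

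The first exon of the upstream start (bases 163570196 to 163570336 in the coordinates of the deposited files, whose build is not given in the sources used here) read 12.26, 12.22 and 12.53 in congenic livers, against 12.24, 12.53 and 12.43 in B6 livers. Its difference was -0.06 ± 0.17, and the groups overlapped. The first exon of the downstream start, 40340 bases further on, read 9.42, 9.48 and 9.65 in congenic livers and 8.89, 9.18 and 9.27 in B6 livers. Its difference was 0.41 ± 0.18, with groups that did not overlap but an adjusted p of 0.779. The 2 RefSeq starts are 40298 bases apart in their own build. The array exons were assigned to the starts by their order and this similar spacing, because the builds were not matched.

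Of the 14 Hnf4a features, 13 were higher in congenic liver, where 50.6% of all exon features were higher. Groups did not overlap for 9 of them, against 11.3% of all exon features in either direction. Hnf4a was named for its gene value, which is drawn from these features, so the counts are no separate support. The 4 that passed in the 24-array fit lay in the body of the gene: bases 163615908 to 163615984 (0.82 ± 0.21), 163625867 to 163625955 (0.78 ± 0.23), 163629469 to 163629706 (0.69 ± 0.17) and 163632235 to 163632388 (0.76 ± 0.18). With brightness as a covariate over the 6 liver arrays, these 4 differed by 0.71, 0.56, 0.57 and 0.44 in the same order. None of them passed there (adjusted p 0.776 to 0.823). The feature at 163632235 read 11.05, 11.26 and 11.42 in congenic livers, against 10.68, 10.43 and 10.34 in B6 livers. The 3′ end was flatter: the last feature, of 2958 bases, gave 0.02 ± 0.23. No Hnf4a exon passed the test of an exon against the rest of its gene, so a difference in exon use within Hnf4a was not detectable here.

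**Figure D2:**
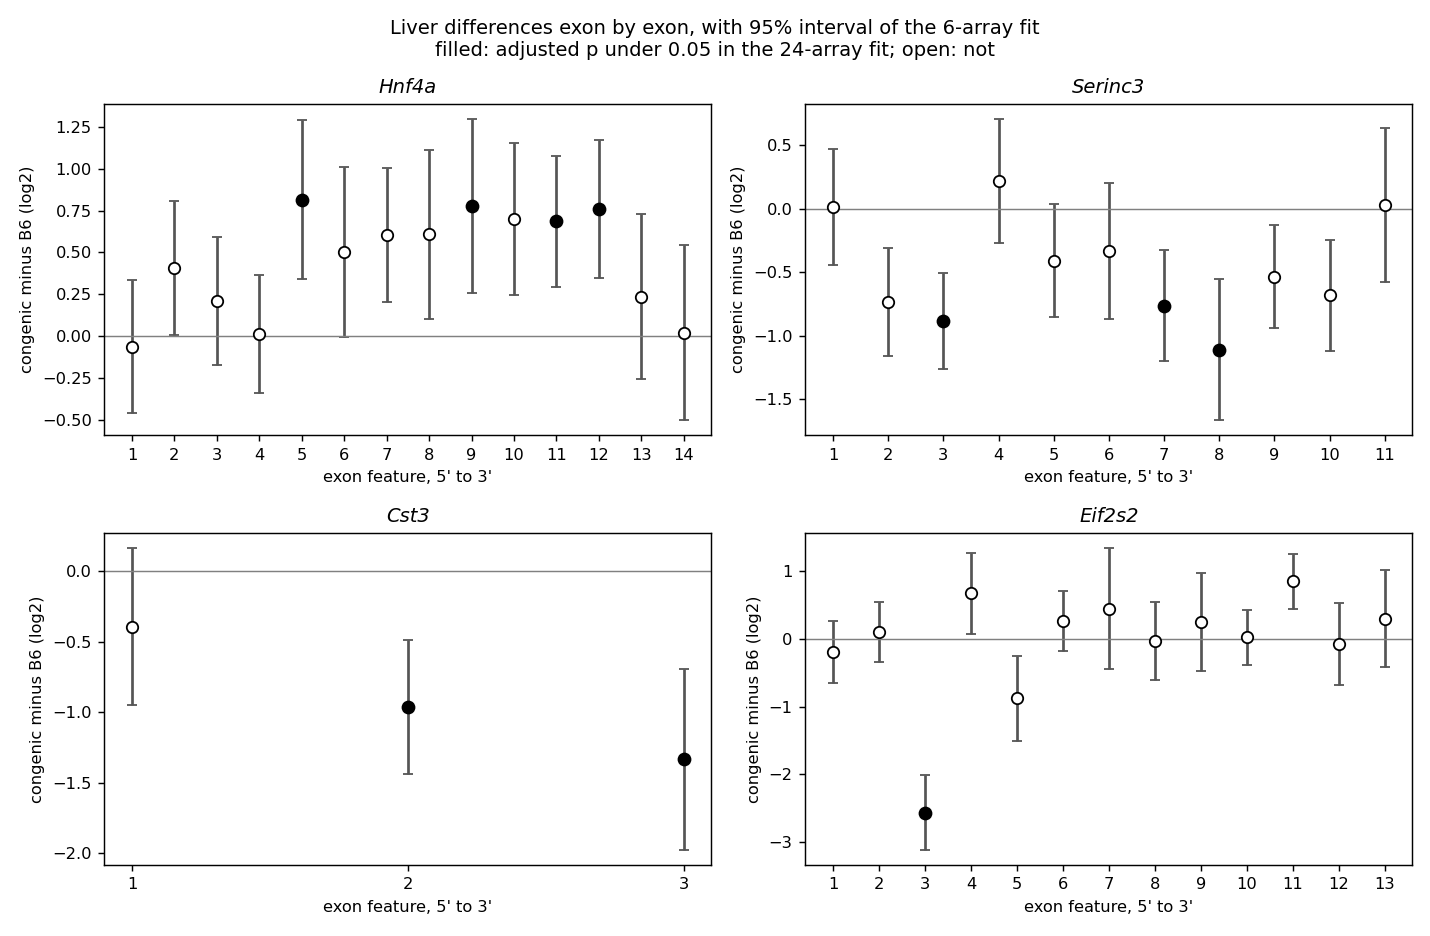
Congenic minus B6 difference in liver (log2) of each exon feature of 4 genes, from 5′ to 3′, with the 95% interval of the 6-array fit. Filled points passed in the 24-array fit. Hnf4a features lie between -0.06 and 0.82, most Serinc3 features and all 3 Cst3 features lie below 0, and 1 Eif2s2 feature lies at -2.56 while its neighbours scatter around 0.

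9430021M05Rik, a transcript whose role is not known from the sources used here, read 9.79, 9.65 and 9.69 in congenic livers, against 9.33, 9.21 and 9.24 in B6 livers. The difference was 0.45 ± 0.08, with an adjusted p of 0.117 in the 6-array fit and 0.00979 in the 24-array fit. Under other processing the difference lay between 0.20 (median scaling without normexp) and 0.82 (mean of exons). All 4 of its features were higher, but 3 of them by only 0.18 to 0.31. The remaining one, of 55 bases, held a single high value: 13.87 in congenic 2, against 8.48 and 7.94 in congenic 1 and 3, and 7.73, 7.33 and 7.39 in B6 livers. On congenic 2 the coefficient of variation of its probes was 1.69, against 0.305 and 0.083 on the other congenic arrays and 0.198, 0.053 and 0.042 on the B6 arrays. Without congenic 2 the gene difference was 0.48 and its adjusted p in the 24-array fit 0.0223. Without congenic 1, B6 2 or B6 3 the call was lost, with adjusted p of 0.0642, 0.0538 and 0.0577.

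Spag4, a sperm-associated protein of the nuclear envelope known mainly from testis, read 9.22, 9.33 and 9.25 in congenic livers and 9.05, 8.96 and 8.99 in B6 livers. The difference of 0.27 ± 0.07 had an adjusted p of 0.247 in the 6-array fit and 0.042 in the 24-array fit. Spag4 read 8.79 to 9.1 in brain, adipose tissue and muscle, a range that holds the B6 livers. At such levels RNA and unbound background cannot be told apart. Of its 10 features, 8 were higher. The 24-array call was lost without any one of 5 of the 6 liver arrays (adjusted p 0.0509 to 0.131) and held without B6 1 (0.038).

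The other genes with the smallest p-values among those higher in congenic liver did not pass in either fit. Apmap, an adipocyte plasma membrane protein with arylesterase activity that liver also makes, read 9.45, 9.46 and 9.67 in congenic livers and 9.11, 9.31 and 9.12 in B6 livers, a difference of 0.35 ± 0.10 (adjusted p 0.247), with 8 of 9 features higher. The agouti gene a, whose protein antagonises melanocortin receptors, differed by 0.47 ± 0.17 (adjusted p 0.686), but 1 congenic liver at 10.71 lay below the highest B6 liver at 10.77. AK033371, which has no symbol here, differed by 0.36 ± 0.10. AK088963, also without a symbol, differed by 0.41 ± 0.10, although 2 of its 3 features were lower, and its sign turned under other scalings. Blcap, a small growth-inhibiting protein, differed by 0.23 ± 0.08. Scand1, a SCAN-domain protein, differed by 0.41 ± 0.16 with overlapping groups, and Esf1, a nucleolar protein of ribosome assembly, by 0.23 ± 0.09. The sign of the Esf1 difference turned under median scaling.

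Among genes lower in congenic liver, 0 passed in any of the 3 fits, but several had groups that stood apart. Srxn1, sulfiredoxin, which repairs over-oxidised peroxiredoxins, read 9.47, 9.71 and 9.59 in congenic livers, against 9.98, 10.31 and 10.11 in B6 livers. All 3 congenic livers were below all 3 B6 livers, and the difference was -0.54 ± 0.11 (adjusted p 0.117). The matched pair gave -0.51. Its 3 features differed by -0.04, -0.59 and -0.32, so the 5′ feature carried little of it.

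Serinc3 encodes a membrane protein of a family that carries serine into lipids and restricts some retroviruses. It read 10.12, 10.18 and 10.53 in congenic livers, against 10.70, 10.79 and 10.80 in B6 livers, without overlap. The difference was -0.49 ± 0.12 (adjusted p 0.245 in the 6-array fit and 0.116 in the 24-array fit), and the matched pair gave -0.59. Of 11 features, 8 were lower, where 49.4% of all exon features were lower. Of the 11, 6 were lower without overlap, where 11.3% of all exon features did not overlap in either direction. Serinc3 was named for its gene value, which is drawn from these features, so the counts are no separate support. In the 24-array fit 3 fell: 163692475 to 163692566 (-1.11 ± 0.24), 163700159 to 163700353 (-0.89 ± 0.17) and 163694274 to 163694444 (-0.76 ± 0.19). The 3 features that were not lower were both ends of the gene, at 0.02 ± 0.20 and 0.03 ± 0.27, and a long feature that contains the one at 163700159, at 0.22 ± 0.21.

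Cst3, cystatin C, a secreted inhibitor of cysteine proteases, had the largest gene difference, -1.00 ± 0.27 (adjusted p 0.247). It read 10.68, 10.26 and 10.75 in congenic livers and 10.99, 12.16 and 11.53 in B6 livers. The groups did not overlap, but the B6 livers spread widely (SD 0.589, against 0.264 in congenic livers). The order in B6 followed raw brightness: the dimmest array, B6 2, gave the highest value and the brightest, B6 1, the lowest. The matched pair gave -0.31, and with brightness as a covariate the difference was -0.15 (adjusted p 0.948). Without B6 2 it was -0.70. With well row as a block, which sets congenic 2 alone against B6 2 and B6 3, it was -1.59. The part of brightness in this difference was not tested. Both 3′ features fell in the 24-array fit, with differences of -1.33 and -0.96, while the 5′ feature gave -0.39 ± 0.24.

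Map1lc3a, an LC3 protein of the autophagosome membrane, read 9.72, 9.90 and 9.75 in congenic livers and 10.08, 10.39 and 10.07 in B6 livers. The difference was -0.39 ± 0.11 (adjusted p 0.247), all 4 features were lower, and the matched pair gave -0.36. Dynlrb1, a light chain of the dynein motor encoded close to Map1lc3a, differed by -0.39 ± 0.15 with overlapping groups, and all 4 of its features were lower too. The remaining genes of this direction differed by little: Sun5 by -0.25 ± 0.10, Zswim1 by -0.17 ± 0.08, Kcns1, a potassium channel subunit, by -0.20 ± 0.09, Sdcbp2 by -0.15 ± 0.07, and Rspo4, a Wnt pathway agonist, by -0.17 ± 0.08.

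**Figure D3:**
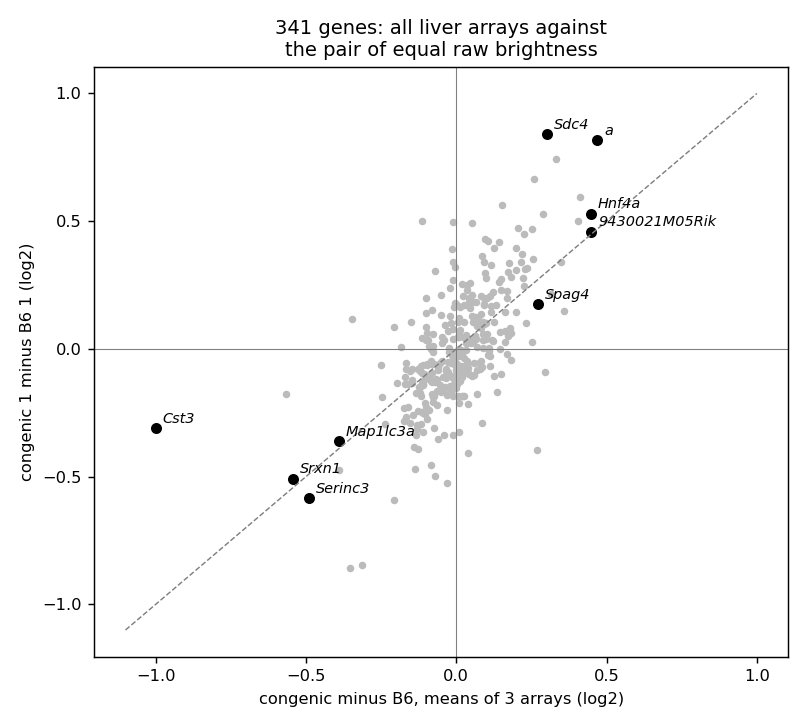
Difference between the means of 3 congenic and 3 B6 liver arrays (horizontal, log2) and between the equally bright arrays congenic 1 and B6 1 (vertical, log2) for 341 genes. The arrays of the pair are also part of the means. Points on the dashed line have equal values. Hnf4a (0.45 and 0.53), Srxn1 (-0.54 and -0.51) and Serinc3 (-0.49 and -0.59) lie near the line, while Cst3 (-1.00 and -0.31) lies far from it.

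At the level of single exons, 1 of 3099 features passed in the 6-array fit (0.0323%), and 194 had an unadjusted p under 0.05 (6.26%). It is a 25-base stretch of Eif2s2 (bases 154951685 to 154951709, minus strand, 2 probes). Eif2s2 encodes the β subunit of eIF2, the factor that brings the initiator tRNA to the ribosome. The feature read 7.86, 8.06 and 7.42 in congenic livers, against 10.17, 10.13 and 10.74 in B6 livers. The groups were more than 2 log2 units apart at their closest. It fell by 2.56 ± 0.24 in congenic liver, 5.91-fold lower, with an adjusted p of 0.00983 in the 6-array fit. It also passed as an exon against the rest of its gene (-2.71, adjusted p 1.04e-08). The probes of the authors' value table were placed on exons by their running number and the number of probes per exon. So placed, both probes of this stretch were lower in congenic liver, with differences of -3.17 and -3.08. The call was lost when any congenic array was left out (adjusted p 0.0571 to 0.0741), and with brightness as a covariate (0.645), and the difference was -1.64 with median scaling without normexp, where it passed.

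A 179-base Eif2s2 feature that contains this stretch gave 0.67 ± 0.26, in the opposite direction. Over the 13 features of the gene the median difference was 0.10. The 25-base stretch fell in congenic samples of the other tissues as well in the 24-array fit: its difference was -2.89 in brain (adjusted p 6.24e-06), -2.46 in adipose tissue (1.45e-04) and -2.17 in muscle (9.92e-04). The liver difference did not depart from the mean of the other tissues (-0.06 ± 0.36).

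In the 24-array fit 28 exon features passed (0.904%), 13 higher (0.419%) and 15 lower (0.484%) in congenic liver. They fell into 2 kinds. In Hnf4a, Serinc3, Cst3 and Cse1l, several features of the gene passed together, with 4, 3, 2 and 2 features. Those of Cse1l were higher, among 27 features with a median of 0.04, of which 16 were higher and 11 lower. In each of the other 17 genes a single feature passed. Rbm39, a splicing cofactor, had 1 lower feature of 51 bases (-1.06 ± 0.21) among 17 with a median of 0.08. That feature was lower in brain (-1.11), adipose tissue (-0.83) and muscle (-0.91) too, and passed in brain. Lbp had 1 lower feature (-1.22 ± 0.29) among 15 with a median of 0.12. Apmap had 1 higher feature that passed (0.99 ± 0.25) among 9 with a median of 0.52. Of the 15 lower features, 7 were lower in all 3 other tissues (46.7%), and of the 13 higher features 2 were higher in all 3 (15.4%), where 16.4% of all features had the liver's sign in all 3.

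As exons against the rest of their gene, 3 of 3072 features passed in the 6-array fit (0.0977%), all lower in congenic liver. Beside the Eif2s2 stretch these were an exon of Chd6, a chromatin remodeller, and one of Cse1l, an exportin of importin α. The Chd6 exon read 6.69, 6.55 and 7.35 in congenic livers, against 11.74, 7.10 and 7.56 in B6 livers, and the difference from the rest of the gene was -1.86 (adjusted p 6.25e-04). Its B6 1 value stood far above the other B6 livers, and the groups overlapped. The Cse1l exon read 6.60 to 8.10 in congenic livers and 6.98 to 9.75 in B6 livers, with overlap (-1.44, adjusted p 0.0166). Without B6 1 neither the Chd6 exon (-0.44) nor this Cse1l exon (-0.88) passed, and neither did without congenic 2 or in the authors' value table. The Cse1l exon did not pass without congenic 3, without B6 2 or with the brightness covariate either.

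The next question was which liver differences depart from the same difference in brain, adipose tissue and muscle. The liver difference minus the mean of the other 3, tested in the 24-array fit, passed for 2 of 341 genes (0.587%). For Hnf4a it was 0.38 ± 0.08 (adjusted p 0.0205). Its own difference was 0.04 in brain, 0.07 in adipose tissue and 0.09 in muscle, where its level was 8.76 to 9.05 over all samples, below that of every liver. At that level RNA and unbound background cannot be told apart, and a gene without RNA there would show no difference. The departure therefore cannot decide whether a genotype difference is particular to liver. For 9430021M05Rik the departure was 0.49 ± 0.10 (adjusted p 0.0205), beside 0.01 in brain, -0.13 in adipose tissue and 0.01 in muscle. Of the 6 ways to leave out 1 liver array, 2 kept the Hnf4a call (without congenic 2 and without B6 3) and 1 kept that of 9430021M05Rik (without congenic 2). The 9430021M05Rik call was also lost with median scaling and in the authors' value table, where that of Hnf4a was kept.

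**Figure D4:**
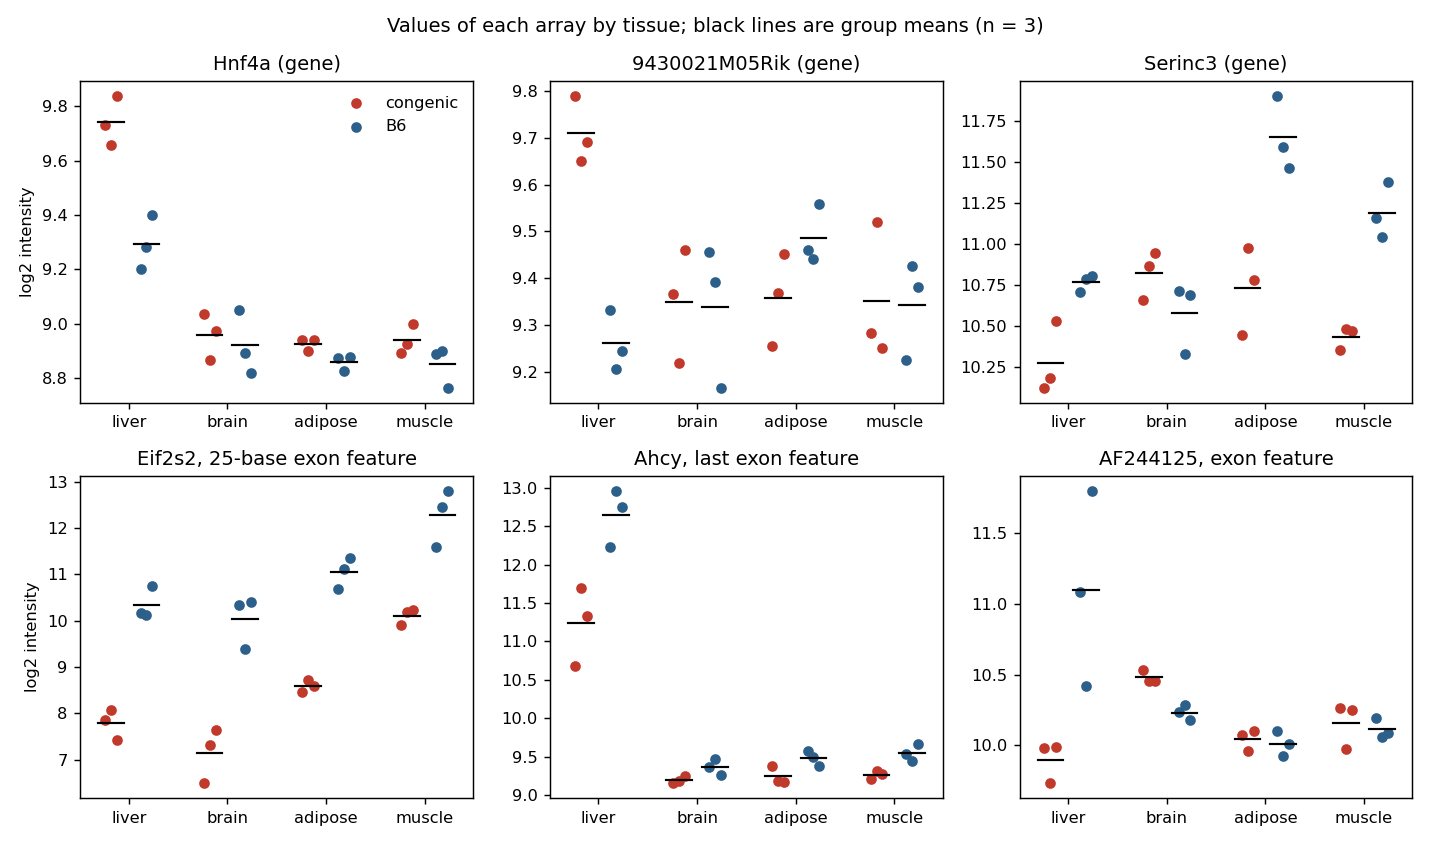
Values of each array (log2 intensity) by tissue, congenic left of B6 in each tissue, with group means as black lines (n = 3). Hnf4a lies at 9.66 to 9.84 in congenic liver and 9.20 to 9.40 in B6 liver and is lower in the other tissues. The Ahcy feature is lower in congenic samples of all 4 tissues, with the largest difference in liver, where its level is also highest. Its differences outside liver did not pass. Serinc3 is lower in congenic liver, adipose tissue and muscle but not in brain. The Eif2s2 stretch is lower in congenic samples of all 4 tissues.

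Serinc3 stood apart from these. Its difference was -0.92 in adipose tissue (adjusted p 0.0011) and -0.76 in muscle (0.00655), where it fell, and 0.25 in brain (0.615). The liver value, -0.49, minus the mean of the other 3 gave -0.01 ± 0.16. Srxn1 was lower in all 4 tissues, by -0.25 in brain, -0.13 in adipose tissue and -0.54 in muscle, none of which passed. Map1lc3a differed by -0.02 in brain, 0.00 in adipose tissue and -0.07 in muscle, yet its liver difference minus their mean (-0.36 ± 0.12) had an adjusted p of 0.33. Liver and brain shared a slide, adipose tissue and muscle another, and slide and tissue cannot be told apart in these comparisons.

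Of exon features, 4 of 3099 passed the same test (0.129%). Of these, 3 were lower (0.0968%) and 1 higher (0.0323%). The 3′ feature of Ahcy (bases 155122662 to 155123929) read 10.68, 11.69 and 11.33 in congenic livers, against 12.23, 12.96 and 12.76 in B6 livers, and its liver difference of -1.41 departed from the other tissues by -1.18 ± 0.22 (adjusted p 0.0169). The feature was lower in congenic samples of those tissues too, without overlap, by smaller differences of -0.17 in brain, -0.24 in adipose tissue and -0.28 in muscle. None of these differences passed in the 24-array fit. The feature read 9.15 to 9.67 in those tissues, below every liver, and unbound background is a larger part of the intensity at a lower level. The departure therefore cannot decide whether the difference is particular to liver. Without B6 2 the departure no longer passed. A shorter Ahcy feature ending at the same base differed by -0.42, and the gene as a whole by -0.24 ± 0.24. A feature of AF244125, a transcript without a symbol here, read 9.98, 9.73 and 9.99 in congenic livers and 11.09, 10.42 and 11.80 in B6 livers, and departed by -1.31 ± 0.24 (adjusted p 0.016). A feature of Tm9sf4, a membrane protein of the secretory pathway, read 9.07, 9.04 and 8.90 in congenic livers, against 8.46, 8.33 and 7.93 in B6 livers, and departed by 0.86 ± 0.15 (0.016). A feature of Csnk2a1, the catalytic α subunit of casein kinase 2, departed by -0.77 ± 0.14 (0.016). It differed by -0.42 in liver and by 0.71 in brain, where it rose (adjusted p 0.00429). Its departure no longer passed without congenic 3. In the authors' value table neither the Tm9sf4 nor the AF244125 departure passed, and with median scaling that of Tm9sf4 did not.

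Lists of genes by role gave few members that stood out, beside 15 higher and 6 lower of all 341 genes at an unadjusted p under 0.05, and a median of 0.01 over all. Among 10 hepatocyte and liver-made proteins, 2 were higher and 1 lower at that level, and the median was -0.05. The higher ones were Hnf4a and Trib3, a pseudokinase that restrains insulin signalling (0.18 ± 0.07), and the lower one was Cst3. In this list Sdc4, a heparan sulfate proteoglycan that takes up lipoprotein remnants, differed by 0.30 ± 0.20 with overlapping groups, and Foxa2 by 0.18 ± 0.15. Among 9 genes of lipid and acetate metabolism and adipocytes, 1 was higher: Fitm2, a protein of the endoplasmic reticulum needed for lipid droplets (0.32 ± 0.13, groups not overlapping). Pltp, which transfers phospholipid between lipoproteins, differed by -0.21 ± 0.16. Fitm2 lies before Hnf4a on the chromosome, at bases 163529948 to 163535937.

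Among 6 genes listed as redox and one-carbon only Srxn1 was below that p, and the median was -0.07. That list also holds Mapre1, Dtd1 and Trp53inp2, whose main roles lie elsewhere. Of 14 genes of vesicle traffic, autophagy and ubiquitin, 3 were lower (Serinc3, Map1lc3a and Dynlrb1) and 0 higher, with a median of -0.03. Sec23b, a coat protein of vesicles leaving the endoplasmic reticulum, differed by 0.22 ± 0.11. Of 15 genes listed under RNA processing and translation, 2 were higher, Esf1 and Nxt1, a cofactor of mRNA export (0.20 ± 0.08), and the median was 0.04. Rbl1 and Rpn2 stand both in that list and in the list of cell division. Of 9 genes of body weight and growth, a alone was below that p, and 7 had a negative difference. Of 9 cystatins only Cst3 was below it. None of 12 genes of the LBP, BPI and PLTP family, 7 mitochondrial genes or 14 genes listed under cell division was, with medians of -0.01, 0.03 and 0.03. The cell division list also holds Rpn2 and Pofut1, whose main roles lie elsewhere. Romo1, a mitochondrial inner membrane protein, differed by 0.25 ± 0.19, and Tpx2, a spindle assembly factor, by -0.15 ± 0.08.

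The lists of other cell types gave 1 gene below that p. None of 6 immune genes, 7 endothelial genes, 11 neuronal genes, 4 muscle genes or 5 adipocyte genes was, with medians of -0.05, -0.01, -0.01, -0.01 and -0.11. In the endothelial list Thbd, thrombomodulin, differed by 0.12 ± 0.08 and Id1 by -0.57 ± 0.32. B6 2 read 10.56 for Id1, against 9.25 and 9.35 in the other B6 livers. Of 18 genes of epididymis, testis and seminal vesicle only Spag4 was. None of the 8 genes off chromosome 2 was, with differences from -0.17 to 0.25 and a median of -0.08.

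**Figure D5:**
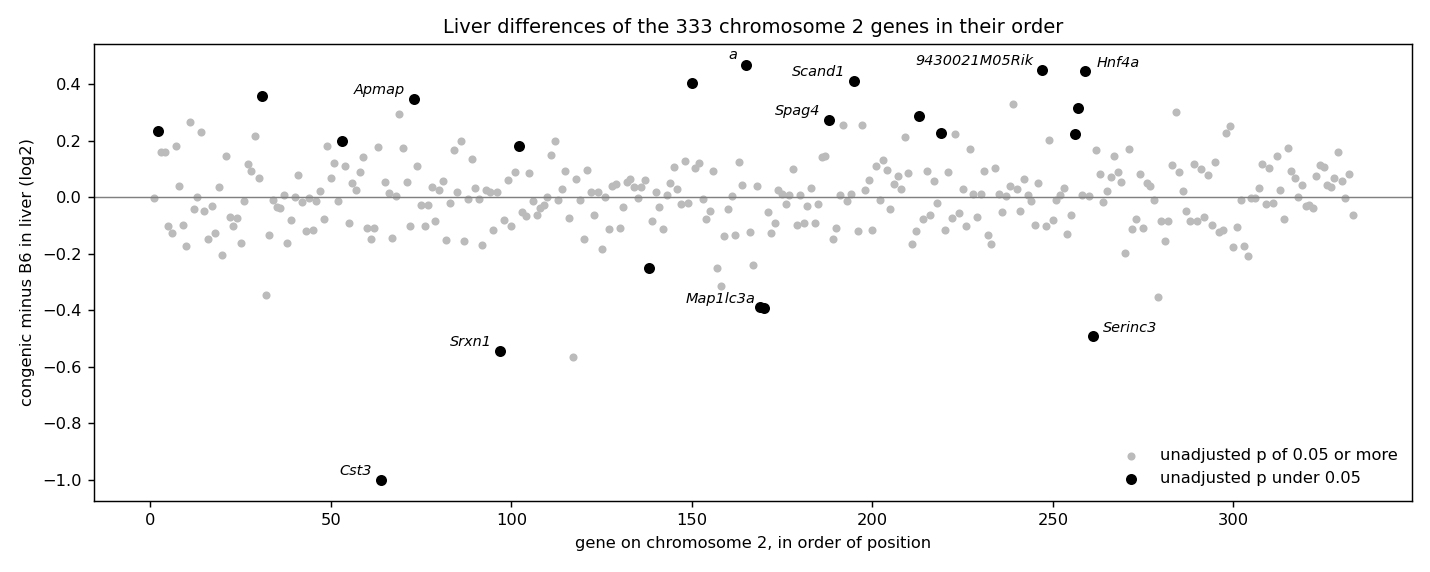
Congenic minus B6 difference in liver (log2) of the 333 chromosome 2 genes, in order of position along the chromosome. Black points have an unadjusted p under 0.05. They are scattered over the covered stretch, with Cst3 lowest at -1.00.

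Along chromosome 2 the differences were spread over the covered stretch, which runs from base 121896708 to base 167412296 of the file coordinates. Between 160 and 165 Mb, which holds Hnf4a and Serinc3, 4 of 68 genes were higher and 1 lower at an unadjusted p under 0.05. Between 155 and 160 Mb it was 5 higher and 2 lower of 74, and between 150 and 155 Mb 3 higher and 2 lower of 97. Medians by 5 Mb stretch lay between -0.03 and 0.04 wherever 27 or more genes were measured. Of the 28 exon features that passed in the 24-array fit, 8 of 568 measured lay between 160 and 165 Mb, 6 of 780 between 155 and 160 Mb, 4 of 801 between 150 and 155 Mb and 5 of 252 between 145 and 150 Mb, beside 0.904% over all features.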

How the data were processed

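Per the labels' protocols, liver RNA was labelled and hybridised to multi-well NimbleGen arrays made for the study. The deposited per-sample files hold raw intensity on a linear scale, the mean over the probes of an exon row (3919 rows, 13388 probes), per the file headers; the deposited ratio used here is the coefficient of variation of those probes. The deposited value table holds the authors' normalized intensity per probe. The submitters' processing notes name RMA without its settings. Whether the raw intensities had background removed is not stated.

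Background correction was normexp with an offset of 50, followed by log2 and quantile normalization of all 24 arrays together. Rows with the same gene and coordinates were averaged to 3099 exon features, and median polish gave 341 genes, 301 of them named through the platform annotation and RefSeq (300 symbols matched) and 40 by transcript accession. limma 3.58.1 in R 4.3.3 tested congenic minus B6 over the 6 liver arrays, single exons against the rest of the gene (diffSplice), and liver minus the mean of the other tissues over 24 arrays. Fits were tested on simulated data. Alternatives were other scalings, no normexp, the value table, brightness, well row or replicate number as a term, array weights, a dim filter, means of exons, leaving out each array and, added after the data were seen, the 12 arrays of 1 slide. In the value table the numbers of congenic 2 and 3 and of B6 1 and 3 fit each other's scanner file better than their own; groups matched.

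Genes named are drawn from the 10 smallest p-values in each direction, up to 4 per list, and those that passed in the 24-array fit or between tissues; exon features from those that passed, the 5 smallest p-values in each direction and up to 8 against the rest of the gene. Other exon features of those genes, and those that passed over 24 arrays, were chosen after their values were seen. Members and lists were chosen with earlier results of these data known. Coordinates are those of the files, except for the RefSeq windows of Hnf4a (GRCm38.p6). Plots used Python 3.11.15 and matplotlib 3.10.9.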

Additional observations from a re-analysis of the deposited data

Results flagged for a closer look

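Each of these results differs in liver from the mean of brain, adipose tissue and muscle by the test of that difference. Liver groups hold 3 arrays, too few to test single arrays as outliers. The congenic minus B6 difference of 9430021M05Rik was 0.49 higher in liver than the mean of the other tissues, and that of Hnf4a 0.38 higher. Among exon features the same quantity was -1.31 for AF244125 (bases 161670606 to 161670797), -1.18 for Ahcy (155122662 to 155123929), -0.77 for Csnk2a1 (152320726 to 152320828) and 0.86 for Tm9sf4 (153252302 to 153252426). Congenic liver arrays were brighter than B6 liver arrays by 0.95 log2 units in the mean of their medians. In the matched pair of arrays these items differed by 0.46, 0.53, -1.11, -1.55, -0.45 and 0.60 in liver. The Ahcy feature was also lower in congenic samples of each other tissue, without overlap, by differences that did not pass. The part of brightness in the tissue comparison was not tested.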

How the results depend on the processing

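Over the 6 liver arrays 0 genes passed under each alternative except the fit of all 24 arrays, with 3; the 12 arrays of 1 slide, chosen after seeing the data, gave 0 genes and 1 exon feature. The count of exon features, 1 as reported, was 28 over 24 arrays and 2 with median scaling. It was 0 with the brightness covariate or the replicate block, and 0 to 2 when 1 array was left out. The Eif2s2 stretch had an adjusted p of 0.192 with the replicate block. With well row as a block, which sets congenic 2 alone against B6 2 and B6 3, its difference was -2.37. No count of exon features is given for that block, because it rests on 1 congenic array. The number of genes that departed from the other tissues, 2 as reported, was 1 with median scaling and 0 to 4 without 1 liver array; 9430021M05Rik was lost with median scaling and in the value table. That of exon features, 4 as reported, was 9 with median scaling, 7 in the value table and 4 to 15 without 1 array. These higher counts hold losses: Tm9sf4 did not pass with median scaling or in the value table, AF244125 in the value table, Csnk2a1 without congenic 3 and Ahcy without B6 2. Exons against the rest of their gene, 3 as reported, were 87 over 24 arrays, 6 with quantile normalization of the 6 arrays, 25 with median scaling, 6 without normexp, 30 with the brightness covariate, 8 with the replicate block and 2 to 15 without 1 array; the Eif2s2 stretch was among them in each. Median scaling without normexp gave smaller differences for Spag4 (0.10), Srxn1 (-0.31), Serinc3 (-0.26) and Map1lc3a (-0.21). Some gene differences turned sign. AK088963 gave -0.085 with quantile normalization of 6 arrays, -0.27 with median scaling, -0.10 with cyclic loess, -0.065 with median scaling without normexp and -0.020 as a mean of exons. With median scaling Esf1 gave -0.27 and Ahcy 0.038, and without normexp -0.17 and 0.10, where Rspo4 gave 0.0092. With the brightness covariate Foxa2 gave -0.14, Pltp 0.20 and Id1 0.072. Nxt1 gave -0.010 in the value table. The cause was not tested. Same-numbered congenic and B6 livers deviated together with correlations of 0.07, -0.03 and 0.25, so the numbers were not taken as pairs. The number of arrays limits what could pass: the median standard error was 0.0959 for a gene and 0.205 for an exon feature.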

Other observations

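Some exon features were higher in every congenic liver than in any B6 liver without passing in the 6-array fit. Those of Eppin and Rims4 are named for their small p-values as exon features, and those of Xrn2 and Sulf2 for their small p-values against the rest of the gene. Eppin, an epididymal protease inhibitor, had a feature that read 9.26, 9.25 and 9.31 in congenic livers, against 8.69, 8.44 and 8.48 in B6 livers (0.73 ± 0.16). A feature of Rims4, a presynaptic scaffold protein, read 8.50, 8.66 and 8.66 in congenic livers and 7.77, 7.93 and 7.83 in B6 livers (0.76 ± 0.16). Group means of the Eppin feature were 8.40 to 8.86 in brain, 8.63 to 8.65 in muscle and 10.03 to 10.19 in adipose tissue. Those of the Rims4 feature were 7.32 to 7.87 in brain, below liver of the same genotype, and 8.29 to 8.55 in adipose tissue and muscle. At the liver levels of both features RNA and unbound background cannot be told apart. A feature of Xrn2, a nuclear exonuclease, read 8.40, 8.39 and 8.28 in congenic livers and 7.79, 7.10 and 6.79 in B6 livers (1.13 ± 0.25). A feature of Sulf2, an enzyme that removes sulfate from heparan sulfate, read 8.44, 8.56 and 8.80 in congenic livers and 7.95, 7.70 and 7.25 in B6 livers (0.97 ± 0.22). The features of Eppin, Rims4 and Sulf2 did not pass in the 24-array fit either, while that of Xrn2 did. Xrn2 had 30 features, of which 1 was higher and 3 were lower without overlap, and Sulf2 had 25, of which 3 were higher without overlap. These counts are near the share over all exon features, of which 11.3% did not overlap.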
